A study of Rattus norvegicus with 8 samples.

Results

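Membrane fusion genes of 6 families were followed in rat sciatic nerve: synaptotagmins, syntaxins, vesicle-associated membrane proteins (VAMPs), SNAP proteins, synaptic vesicle glycoproteins (SV2) and complexins. The members were chosen by symbol (Syt, Stx, Vamp or Snap with a number, Sv2a to Sv2c, Cplx1 to Cplx4) together with a normalized read count of 10 or more in at least 2 libraries. Of 48 genes whose symbol matched, 44 passed this minimum: 14 of 17 synaptotagmins, 14 of 14 syntaxins, 7 of 7 VAMPs, 4 of 4 SNAP proteins, 2 of 2 SV2 genes and 3 of 4 complexins. They are 44 of the 16478 genes tested and of the 32545 genes listed. Syt2, Syt10, Syt14 and Cplx4 did not pass, with the highest library of each at 6.75, 3.74, 6.25 and 2.15 normalized counts. Closest to the minimum on its other side, Snap25 and Cplx1 reached it in 3 libraries each, and Syt1, Syt6, Syt8 and Cplx3 in 4 each. Snap91 matched the symbol pattern but encodes AP180, a clathrin assembly protein that is no SNARE. Snap23 and Sv2b were not analysed here.

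SNARE proteins pull a vesicle and its target membrane together. A VAMP on the vesicle zippers with a syntaxin and a SNAP protein on the target membrane into a helical bundle, synaptotagmins act as Ca2+ sensors for this step, complexins bind the assembled bundle, and SV2 proteins are glycoproteins of the vesicle membrane. Neuronal members serve transmitter release, while others serve the Golgi, endosomes, lysosomes, plasma membrane growth and granule release by immune cells. In a sciatic nerve the cell bodies of the neurons lie outside the nerve itself, whose nucleated cells are Schwann cells, fibroblasts, vessel cells and immune cells, while axons carry some RNA of their own.

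All nerves came from outbred female Sprague Dawley (Envigo) rats aged 3 to 6 months. PEG-fused peripheral nerve allografts (PEG, n = 3 animals) had their cut ends treated with the membrane fusogen polyethylene glycol and were taken 14 days after surgery (PO). Negative control allografts (NC, n = 3 animals) had the same washes, methylene blue and sutures without PEG, also 14 days PO. Unoperated sciatic nerves (Unop, n = 2 animals) had neither surgery nor PEG. Donors and hosts of both kinds of PNA were neither tissue matched nor immunosuppressed, and each library is 1 animal.

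Each library held 32472925 to 39959620 reads on genes. Markers of myelinating Schwann cells were detected in every group, with summed normalized counts of 56091 to 61918 in PEG, 23736 to 80964 in NC and 2714110 to 3256820 in Unop nerves. Summed markers of axons and neurons (11 genes, Chat at 0 in all PNAs) were 4989 to 5820 in PEG, 2531 to 3197 in NC and 39450 to 39987 in Unop nerves. T cell markers summed to 1364 to 3976 in PEG, 17059 to 34002 in NC and 220.1 to 397.1 in Unop nerves. Skeletal muscle markers set NC replicates apart from each other, with sums of 724476, 12171 and 265203 for NC 1, NC 2 and NC 3, against 3012 to 17340 in PEG and 6420 to 36515 in Unop nerves. In these bulk samples, fewer cells of a type and less RNA per cell cannot be told apart.

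Between PEG-fused and NC PNAs, 9 of the 44 fusion genes were higher and 8 lower at an adjusted p below 0.05, and 27 were not called (limma on log2(normalized count + 1), Benjamini-Hochberg over all 16478 genes). Across all genes tested, 15.0% were called higher and 13.9% lower in this comparison, against 20.5% and 18.2% of the fusion genes. The members that rose were Syt3, Syt4, Syt5, Syt9, Stx2, Stx6, Stx12, Sv2c and Cplx2, and those that fell included Stx3, Stx4, Stx7, Stx11, Vamp1, Vamp8 and Snap91. Syt9 reached the minimum for testing in no NC library, so its call is a description. The median log2 fold change of the members was 0.01, beside 0.00 for all genes tested. Past a log2 fold change of 1 in size there were 4 in each direction: Syt4, Syt5, Syt9 and Sv2c higher, and Stx11, Vamp1 and Snap91 among those lower.

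Against Unop nerves the members were lower more often than higher. In PEG-fused PNAs 6 were higher and 18 lower, where 29.1% and 28.6% of all genes tested were called. In NC PNAs 4 were higher and 20 lower, where the shares over all genes were 32.2% and 32.3%. The lower calls include Snap25 and Cplx1, which reached the minimum for testing in both Unop libraries and NC 1 alone, so their calls are a description. Those in NC PNAs also include Syt1 and Syt9, which reached it in no NC library, and these calls are a description too. The median log2 fold change of the members was -0.41 in PEG-fused and -0.40 in NC PNAs, beside 0.01 and 0.02 for all genes. Both comparisons use the same 2 Unop nerves, so their values are given side by side below and are not independent of each other.

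**Figure D1:**
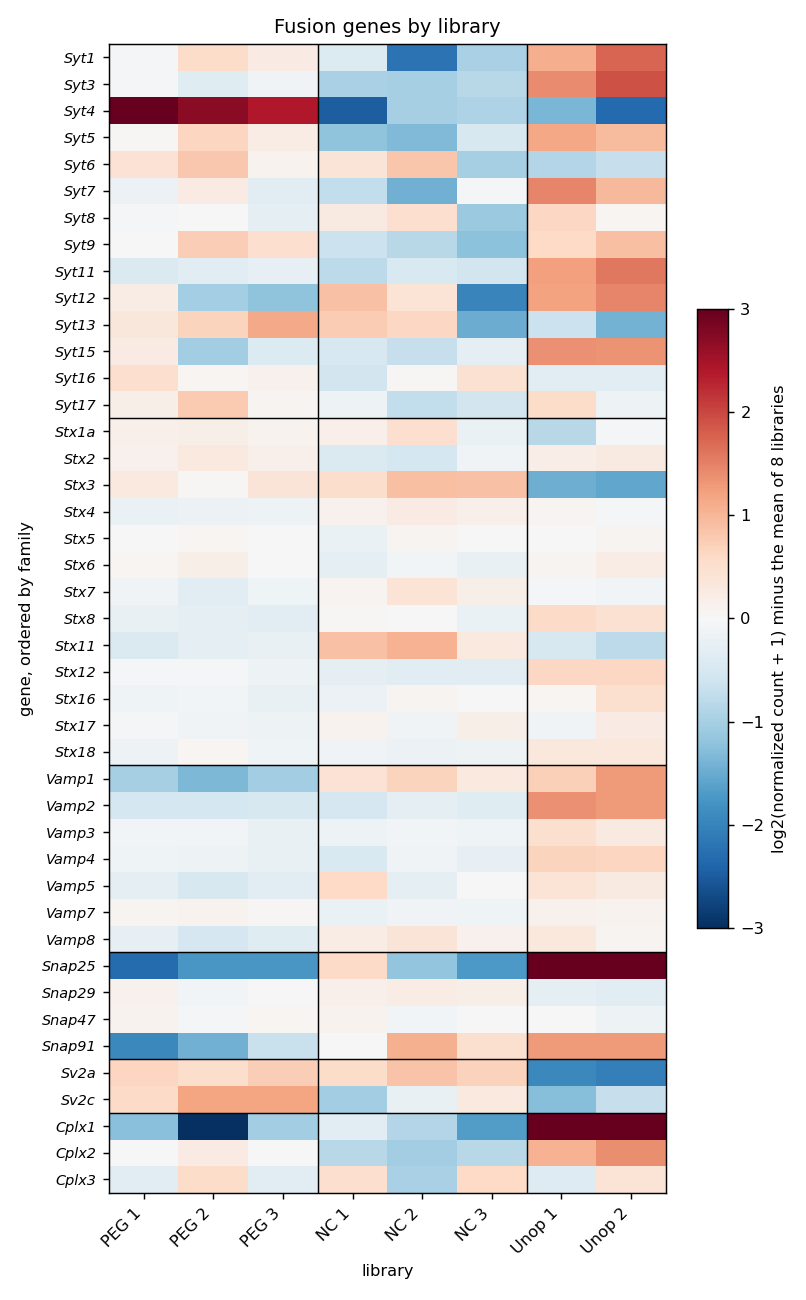
Fusion genes (rows, by family) in the 8 libraries (columns), as log2(normalized count + 1) minus the gene's mean over the 8 libraries, with colours ending at -3 and 3 and 1 member not shown. Syt4 is highest in the 3 PEG libraries, Snap25 and Cplx1 in the 2 Unop libraries, and Sv2a and Stx3 are lowest in Unop nerves.

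Among synaptotagmins, Syt4 showed the largest log2 fold change of any member between the PNAs. A C2 domain of it lacks a residue needed for Ca2+ binding, and the protein is known from dense-core vesicles and from neurons in which activity induces it. Syt4 had normalized counts of 444, 363 and 292 in the PEG libraries, 8.94, 26.9 and 28.0 in the NC libraries and 20.4 and 10.01 in the Unop libraries. All 3 PEG libraries exceeded every other library by at least 10.4-fold, and NC and Unop libraries overlapped. Its mean was higher in the PEG libraries, 366 ± 76.2 (SD, n = 3), than in the NC libraries, 21.3 ± 10.7 (SD, n = 3), a log2 fold change of 4.18, SE 0.46, adjusted p = 0.000897. Relative to Unop nerves (15.2 ± 7.34, SD, n = 2), PEG-fused PNAs were higher, at a log2 fold change of 4.56, SE 0.51, adjusted p = 0.000125. Against Unop nerves, NC PNAs had a log2 fold change of 0.38 (SE 0.51, adjusted p = 0.532). The call held without any 1 library and with each other tool and setting run, with log2 fold changes of 3.67 to 4.44 against NC PNAs.

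The promoters of Syt4 and Sv2c are printed because they were the only members called higher in PEG-fused grafts than in both NC PNAs and Unop nerves. Each run is the 250 bases before the RefSeq start site (build GRCr8), read 5′ to 3′ on the gene's strand. None of the motifs searched below matched either window, so both are in lower case throughout. The Syt4 window lies at chr18:23320864-23321113 and the Sv2c window at chr2:29163169-29163418, both on the minus strand.
Syt4: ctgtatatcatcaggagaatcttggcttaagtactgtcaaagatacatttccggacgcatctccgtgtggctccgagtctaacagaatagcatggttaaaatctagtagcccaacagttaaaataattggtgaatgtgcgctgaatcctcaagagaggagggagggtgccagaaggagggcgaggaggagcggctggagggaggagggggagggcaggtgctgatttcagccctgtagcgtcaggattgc
Sv2c: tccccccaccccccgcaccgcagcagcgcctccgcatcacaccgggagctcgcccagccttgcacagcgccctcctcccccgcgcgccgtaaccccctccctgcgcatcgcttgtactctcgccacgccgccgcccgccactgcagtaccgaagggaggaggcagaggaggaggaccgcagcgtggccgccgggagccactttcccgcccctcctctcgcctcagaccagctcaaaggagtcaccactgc

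Other synaptotagmins called between the PNAs also rose in PEG-fused PNAs, to levels at or below those of Unop nerves. Syt3 encodes a sensor with high affinity for Ca2+. Normalized counts of Syt3 were 116, 93.5 and 112 in PEG-fused PNAs, 60.8, 60.2 and 67.5 in NC PNAs and 324 and 453 in Unop nerves. The PEG libraries lay above the NC libraries and below the Unop libraries, with no overlap. The PEG mean of 107 ± 11.9 (SD, n = 3) was higher than the NC mean of 62.8 ± 4.06 (SD, n = 3), at a log2 fold change of 0.75, SE 0.19, adjusted p = 0.0197. PEG-fused PNAs were lower than Unop nerves (388 ± 91.0, SD, n = 2), at a log2 fold change of -1.84, SE 0.21, adjusted p = 0.000143. NC PNAs were also lower than Unop nerves (log2 fold change -2.59, SE 0.21, adjusted p = 1.46e-05). The call between the PNAs was lost without PEG 1 or PEG 3 (adjusted p 0.0682 and 0.0675).

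Syt5, known from dense-core vesicles and phagosomes, kept the same order of groups. For Syt5, the 3 PEG libraries stood at 94.5, 146 and 107.9, the 3 NC libraries at 39.3, 36.6 and 66.6, and the 2 Unop libraries at 207 and 179 normalized counts. Again no library of 1 group overlapped another group. Between the PNAs the means were 116 ± 26.6 (PEG, SD, n = 3) and 47.5 ± 16.6 (NC, SD, n = 3), a log2 fold change of 1.30, SE 0.28, adjusted p = 0.0105. PEG-fused PNAs were not called against Unop nerves (log2 fold change -0.75, SE 0.31, adjusted p = 0.0680), and NC PNAs were (log2 fold change -2.05, SE 0.31, adjusted p = 0.000510).

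Syt9, a fast Ca2+ sensor of exocytosis, was measured from few reads. The Syt9 libraries read 10.2, 17.8 and 15.0 normalized counts in PEG, 6.26, 5.38 and 3.86 in NC and 16.1 and 20.0 in Unop. PEG libraries lay above NC libraries and overlapped Unop libraries. Its mean was higher in the PEG libraries, 14.3 ± 3.83 (SD, n = 3), than in the NC libraries, 5.16 ± 1.21 (SD, n = 3), a log2 fold change of 1.30, SE 0.35. The limma call between the PNAs was lost with DESeq2 on the recovered reads, with a replicate block and without PEG 2, PEG 3, NC 2 or NC 3. NC PNAs were lower than Unop nerves (log2 fold change -1.64, SE 0.39). Syt9 reached the minimum for testing in the PEG and Unop libraries alone, so its calls against NC PNAs are a description, with no p.

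Syt1, the fast Ca2+ sensor of synaptic vesicle release, was present at a low level in all groups. Syt1 was measured at 8.34, 13.1 and 10.3 normalized counts in PEG, 6.26, 1.08 and 3.86 in NC and 19.3 and 31.3 in Unop libraries. Libraries of the 3 groups did not overlap, with Unop highest and NC lowest. NC PNAs were lower than Unop nerves (log2 fold change -2.61, SE 0.57). Syt1 reached the minimum for testing in PEG 2, PEG 3, Unop 1 and Unop 2 alone, so that call is a description, with no p. The difference between PEG-fused and NC PNAs was not called (log2 fold change 1.45, SE 0.51, adjusted p = 0.0651). Without NC 1 the adjusted p for PEG against NC was 0.0334.

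Syt11, which binds no Ca2+ and is known for a role in vesicle traffic and endocytosis, was the synaptotagmin with the most reads. Syt11 had normalized counts of 1138, 1228 and 1305 in the PEG libraries, 899, 1117 and 1050 in the NC libraries and 3617 and 4603 in the Unop libraries. Every PNA library lay below both Unop libraries. Against Unop nerves (4110 ± 697, SD, n = 2) the mean of PEG-fused PNAs was lower, 1224 ± 83.4 (SD, n = 3), a log2 fold change of -1.74, SE 0.14, adjusted p = 1.88e-05. The mean of NC PNAs, 1022 ± 111 (SD, n = 3), was lower than that of Unop nerves, a log2 fold change of -2.00, SE 0.14, adjusted p = 6.07e-06. Between the PNAs it was not called (log2 fold change 0.26, SE 0.12, adjusted p = 0.143), although the PEG libraries did not overlap the NC libraries.

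Of the 14 synaptotagmins, 4 were higher and 0 lower in PEG-fused than in NC PNAs; limma at an unadjusted p below 0.05, DESeq2 and edgeR also called 0 lower. These were 28.6% and 0%, beside 15.0% and 13.9% of all genes tested. The median log2 fold change of the synaptotagmins was 0.71, beside 0.00 for all genes. Against Unop nerves 2 were higher and 4 lower in PEG-fused PNAs (14.3% and 28.6%, beside 29.1% and 28.6% of all genes). In NC PNAs 0 were higher and 7 lower (0% and 50%, beside 32.2% and 32.3%), where the other tools and the unadjusted p likewise gave 0 higher. Syt9 is among the 4 higher between the PNAs, and Syt1 and Syt9 are among these 7, with calls that are a description. Syt7, a high-affinity sensor of lysosome exocytosis, and Syt15 were lower in both kinds of PNA, with group means of 66.3 (PEG), 43.8 (NC) and 163.7 (Unop) for Syt7 and of 170.9, 151.3 and 545.9 for Syt15. The Syt7 call in PEG-fused PNAs was lost without PEG 1, PEG 3 or Unop 1 (largest adjusted p 0.142). Syt13, which binds no Ca2+, was higher in PEG-fused grafts than in Unop nerves (log2 fold change 1.75, SE 0.64, adjusted p = 0.0444). Normalized counts of Syt13 were 129, 162 and 226 in PEG-fused PNAs, 173, 157 and 35.7 in NC PNAs and 64.4 and 37.5 in Unop nerves. The NC libraries overlapped both other groups. Leaving out any 1 PEG or Unop library, or testing with no filter, ended that call (largest adjusted p 0.225). Syt6, Syt8, Syt12, Syt16 and Syt17 were called in no comparison, with group means between 4.65 (Syt6, Unop) and 97.7 (Syt17, PEG).

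**Figure D2:**
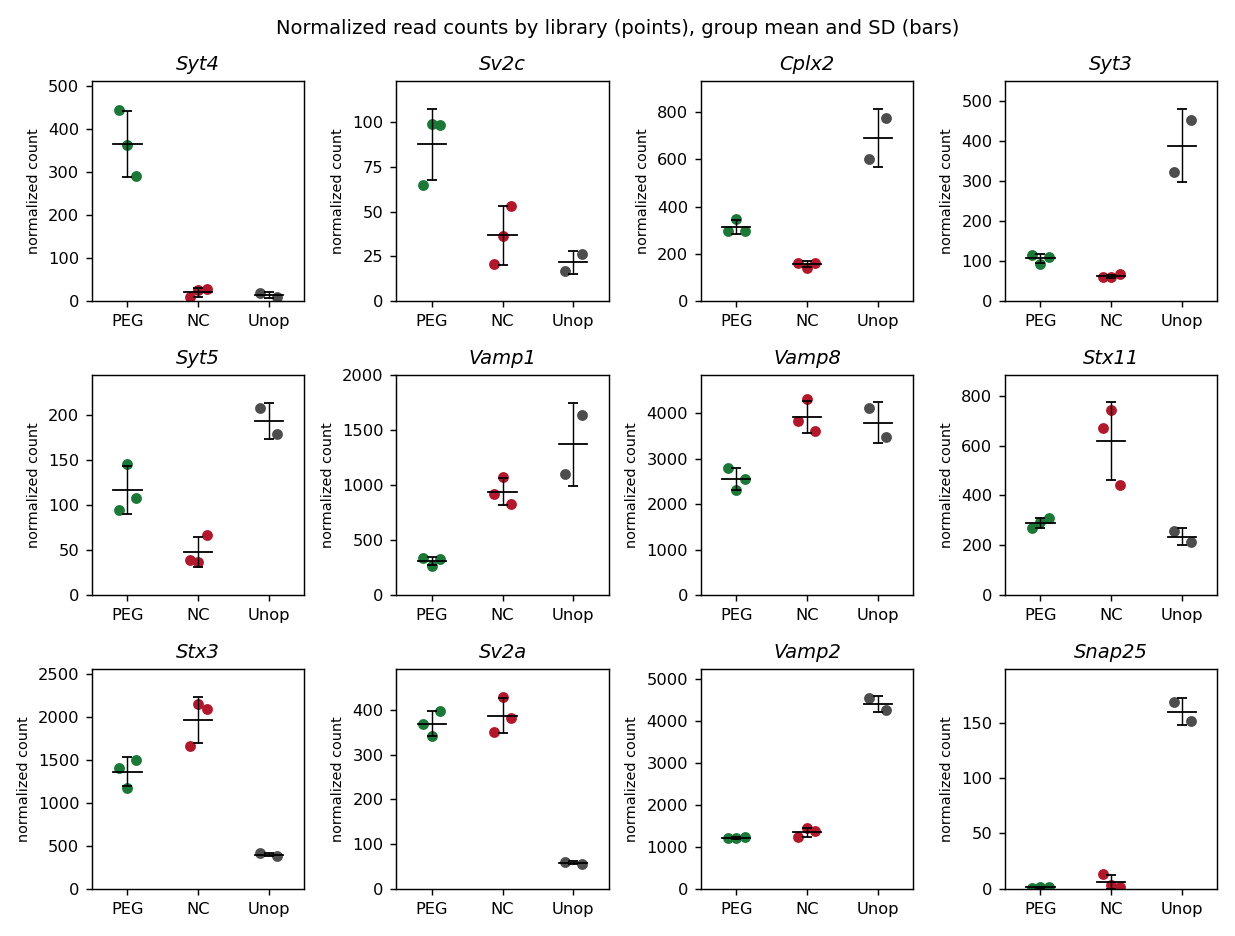
Normalized read count (vertical axis, from 0) of 12 fusion genes in each library (points), with the group mean and SD (bars; n = 3 PEG, 3 NC, 2 Unop). Syt4 and Sv2c stand highest in PEG, Stx11 and Stx3 in NC, and Vamp2, Cplx2 and Snap25 in Unop libraries.

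Syntaxins of the plasma membrane moved in both directions between the PNAs. Stx11, a syntaxin of immune cells needed for cytotoxic granule release, was higher in NC PNAs than in both other groups. For Stx11, the 3 PEG libraries stood at 269, 295 and 309, the 3 NC libraries at 672, 741 and 442, and the 2 Unop libraries at 259 and 211 normalized counts. The 3 NC libraries lay above all others. The PEG mean of 291 ± 20.3 (SD, n = 3) was lower than the NC mean of 618 ± 157 (SD, n = 3), at a log2 fold change of -1.05, SE 0.20, adjusted p = 0.00653. Relative to Unop nerves (235 ± 33.4, SD, n = 2), NC PNAs were higher, at a log2 fold change of 1.36, SE 0.22, adjusted p = 0.000797. PEG-fused PNAs and Unop nerves were not called apart (log2 fold change 0.31, SE 0.22, adjusted p = 0.262). Summed cytotoxic lymphocyte markers (6 genes matched, none at 0) were 405.7 to 1515 in PEG, 5301 to 9481 in NC and 90.1 to 121.3 in Unop nerves; their part in the Stx11 result was not tested.

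Stx3, a syntaxin of apical membranes and of granule release in mast cells and neutrophils, rose in both kinds of PNA over Unop nerves. The Stx3 libraries read 1413, 1181 and 1503 normalized counts in PEG, 1665, 2153 and 2099 in NC and 413 and 388 in Unop. No library of 1 group overlapped another group, in the order NC, PEG and Unop. The mean of PEG-fused PNAs, 1365 ± 166 (SD, n = 3), was higher than that of Unop nerves (400.5 ± 18.0, SD, n = 2), a log2 fold change of 1.76, SE 0.15, adjusted p = 2.51e-05. Against Unop nerves the mean of NC PNAs was higher, 1972 ± 268 (SD, n = 3), a log2 fold change of 2.29, SE 0.15, adjusted p = 4.29e-06. Between the PNAs Stx3 fell by 0.53 on the log2 scale in PEG-fused against NC PNAs (SE 0.13, adjusted p = 0.0193), a call lost without PEG 2, NC 2 or NC 3 (adjusted p 0.0560 to 0.0716). Summed macrophage markers (10 genes, none at 0) ran in the same order, at 151954 to 176057 in NC, 98529 to 117642 in PEG and 20101 to 31338 in Unop nerves, and their part was not tested. Of the 10 genes, 7 were called lower and 0 higher in PEG-fused than in NC PNAs. Cd68 went the other way, at 20030 to 22451 in PEG and 14060 to 18968 in NC libraries, and Mrc1 overlapped between the PNAs.

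Stx1a, a t-SNARE of synaptic release, was called in no comparison. Stx1a was measured at 181, 185 and 175 normalized counts in PEG, 181, 231 and 142 in NC and 92.3 and 160.1 in Unop libraries. The PEG libraries overlapped the NC libraries (log2 fold change -0.01, SE 0.25, adjusted p = 0.988 between the PNAs) and lay above both Unop libraries.

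Stx2 (epimorphin) and Stx4, plasma membrane syntaxins of many cell types, changed in opposite directions. Stx2 had normalized counts of 1525, 1692 and 1542 in the PEG libraries, 1031, 957 and 1291 in the NC libraries and 1589 and 1666 in the Unop libraries. Between the PNAs the means were 1586 ± 92.0 (PEG, SD, n = 3) and 1093 ± 175 (NC, SD, n = 3), a log2 fold change of 0.55, SE 0.12, adjusted p = 0.0110. The PEG and Unop libraries of Stx2 overlapped, and NC PNAs were below both (log2 fold change -0.59, SE 0.13, adjusted p = 0.00457 against Unop nerves). Normalized counts of Stx4 were 2215, 2237 and 2275 in PEG-fused PNAs, 2785, 2986 and 2825 in NC PNAs and 2669 and 2431 in Unop nerves. The NC libraries of Stx4 lay above all others, and the PEG libraries below all others. Its mean was lower in the PEG libraries, 2242 ± 30.1 (SD, n = 3), than in the NC libraries, 2865 ± 107 (SD, n = 3), a log2 fold change of -0.35, SE 0.07, adjusted p = 0.00910.

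Among syntaxins of the trans-Golgi and endosomes the differences between the PNAs were under 0.42 on the log2 scale. For Stx6, the 3 PEG libraries stood at 4663, 5028 and 4493, the 3 NC libraries at 3698, 4166 and 3817, and the 2 Unop libraries at 4719 and 5223 normalized counts. For Stx6, a trans-Golgi syntaxin, PEG libraries lay above NC libraries (log2 fold change 0.28, SE 0.09, adjusted p = 0.0408). The Stx12 libraries read 4824, 4768 and 4461 normalized counts in PEG, 4039, 3904 and 3964 in NC and 7637 and 7613 in Unop. For Stx12, a recycling endosome syntaxin, the order was Unop, PEG and NC with no overlap (log2 fold change 0.24, SE 0.07, adjusted p = 0.0345 between the PNAs). Stx7 was measured at 2801, 2439 and 2780 normalized counts in PEG, 3219, 4048 and 3445 in NC and 2953 and 2878 in Unop libraries. For Stx7, a late endosome syntaxin, NC libraries lay above both other groups (log2 fold change -0.41, SE 0.10, adjusted p = 0.0199). Leaving out single libraries ended the call for Stx6 and Stx12 (without PEG 1, PEG 2, PEG 3, NC 1 or NC 3, and for Stx12 also NC 2; adjusted p 0.0548 to 0.143) and, without PEG 2, for Stx7 (0.0785).

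Over the 14 syntaxins, 3 were higher and 5 lower in PEG-fused than in NC PNAs. These were 21.4% and 35.7%, beside 15.0% and 13.9% of all genes tested. Against Unop nerves 1 was higher and 4 lower in PEG-fused PNAs (7.14% and 28.6%, beside 29.1% and 28.6% of all genes). In NC PNAs 2 were higher and 5 lower than in Unop nerves (14.3% and 35.7%, beside 32.2% and 32.3%). Stx12 fell by 0.70 on the log2 scale in PEG-fused and by 0.94 in NC PNAs against Unop nerves. Stx8, a partner of Stx7 on late endosomes, fell by 0.79 and 0.57, and Stx18 of the endoplasmic reticulum by 0.39 and 0.46. Stx16 was called lower in PEG-fused PNAs (log2 fold change -0.43, SE 0.14, adjusted p = 0.0281), and not called in NC PNAs (log2 fold change -0.30, SE 0.14, adjusted p = 0.0910). That call was lost without PEG 1, PEG 3 or Unop 2, with log2 fold changes of -0.65 to -0.21 over the alternatives and a largest adjusted p of 0.205. Stx5 of the Golgi and Stx17 of autophagosomes were called in no comparison, with group means of 2208 to 2325 and 334.4 to 377.8.

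**Figure D3:**
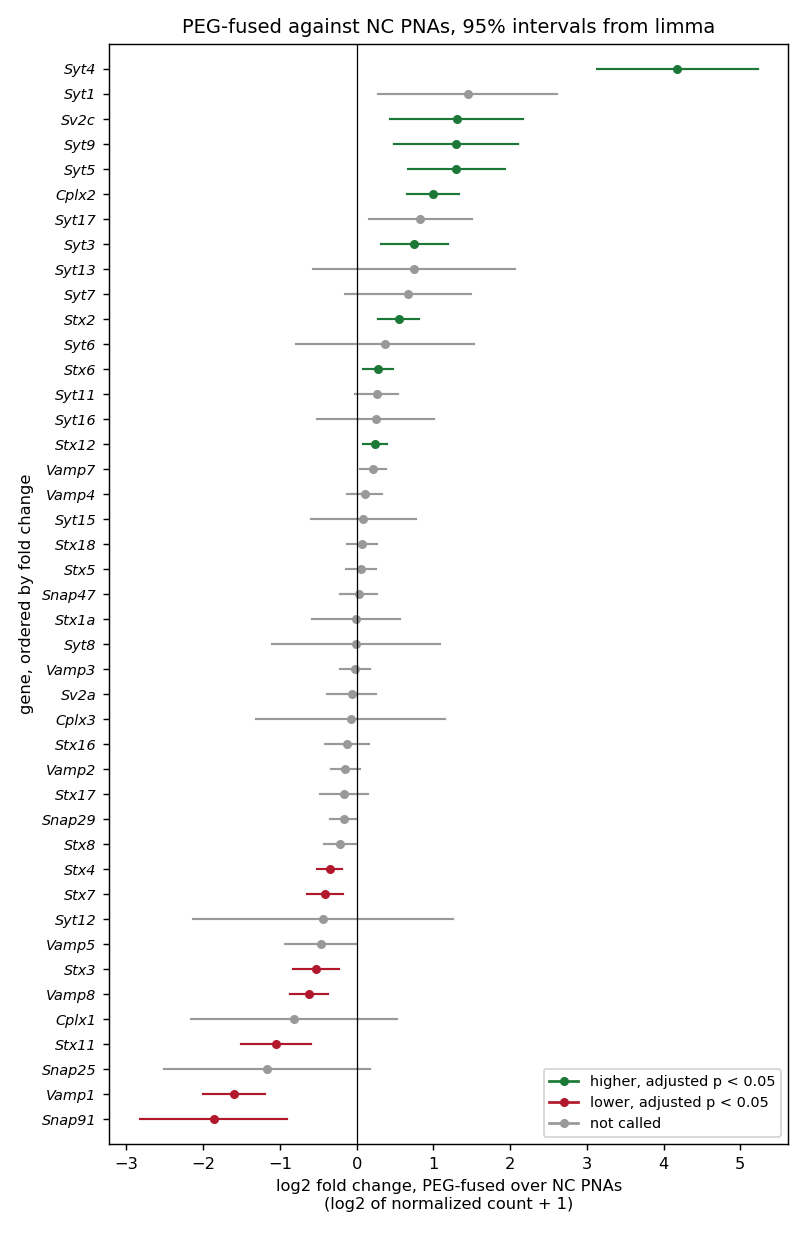
Log2 fold change of PEG-fused over NC PNAs (horizontal axis, log2 of normalized count + 1) for each fusion gene, with its 95% interval from limma (n = 3 and 3, spread estimated over all 8 libraries). Syt4 stands alone at 4.18, 9 genes are called higher (green, with the Syt9 call a description), and those called lower are red, with 1 member not shown.

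VAMPs, the vesicle SNAREs, were mostly lower in the grafts. Vamp1 (synaptobrevin 1), the VAMP of motor and some sensory terminals, was the member with the smallest p among those lower in PEG-fused than in NC PNAs. Vamp1 had normalized counts of 338, 266 and 326 in the PEG libraries, 916, 1073 and 832 in the NC libraries and 1103 and 1636 in the Unop libraries. Every PEG library lay below every NC library, and these below both Unop libraries. The PEG mean of 310.4 ± 38.5 (SD, n = 3) was lower than the NC mean of 940.3 ± 122 (SD, n = 3), at a log2 fold change of -1.60, SE 0.17, adjusted p = 0.000897. PEG-fused PNAs were lower than Unop nerves (1370 ± 377, SD, n = 2), at a log2 fold change of -2.12, SE 0.20, adjusted p = 4.24e-05. NC PNAs were called lower than Unop nerves (log2 fold change -0.52, SE 0.20, adjusted p = 0.0432), and without Unop 2 the log2 fold change there was -0.24 (adjusted p = 0.333). That call was also lost without PEG 1, PEG 3, NC 1 or NC 3, with no filter, with 2 groups only and with a replicate block (adjusted p 0.0510 to 0.118).

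Vamp2 (synaptobrevin 2), the main vesicle SNARE of central synapses, fell in both kinds of PNA. Normalized counts of Vamp2 were 1212, 1209 and 1247 in PEG-fused PNAs, 1239, 1456 and 1371 in NC PNAs and 4550 and 4271 in Unop nerves. No PNA library exceeded 1456, and neither Unop library was under 4271. Against Unop nerves (4411 ± 197, SD, n = 2) the mean of PEG-fused PNAs was lower, 1223 ± 20.9 (SD, n = 3), a log2 fold change of -1.85, SE 0.09, adjusted p = 2.38e-06. The mean of NC PNAs, 1355 ± 109.3 (SD, n = 3), was lower than that of Unop nerves, a log2 fold change of -1.70, SE 0.09, adjusted p = 2.21e-06. The PEG and NC libraries overlapped, with a 95% interval of -0.34 to 0.05 for their log2 difference.

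The Vamp1, Vamp2 and Vamp4 windows are printed as VAMP promoters that hold a motif searched for, among genes lower in both PNAs than in Unop nerves. The motifs were AP-1 (TGANTCA), the interferon gamma activated site (TTCNNNGAA), the interferon-stimulated response element core (GAAANNGAA), EGR (GCGNGGGCG), the cyclic AMP response element or CRE (TGACGTCA) and the TATA box (TATAAA), on either strand, and capitals mark their matches. Vamp1 holds GAAATAGAA and a CRE 71 to 64 bases before the start site, Vamp2 holds EGR letters on the opposite strand at 98 to 90 and at 57 to 49 bases, and Vamp4 holds EGR letters that begin 194 bases before it. The 3 windows lie on the plus strand, at chr4:159698644-159698893 for Vamp1, chr10:54292539-54292788 for Vamp2 and chr13:77453070-77453319 for Vamp4 (GRCr8).
Vamp1: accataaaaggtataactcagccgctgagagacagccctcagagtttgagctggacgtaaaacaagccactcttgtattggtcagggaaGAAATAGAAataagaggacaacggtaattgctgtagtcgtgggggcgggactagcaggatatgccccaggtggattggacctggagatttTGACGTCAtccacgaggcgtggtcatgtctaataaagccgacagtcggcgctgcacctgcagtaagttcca
Vamp2: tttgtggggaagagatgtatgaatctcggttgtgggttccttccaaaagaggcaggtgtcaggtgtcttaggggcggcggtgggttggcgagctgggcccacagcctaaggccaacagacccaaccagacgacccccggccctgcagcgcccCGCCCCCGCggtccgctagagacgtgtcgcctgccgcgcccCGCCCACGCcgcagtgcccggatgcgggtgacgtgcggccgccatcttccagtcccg
Vamp4: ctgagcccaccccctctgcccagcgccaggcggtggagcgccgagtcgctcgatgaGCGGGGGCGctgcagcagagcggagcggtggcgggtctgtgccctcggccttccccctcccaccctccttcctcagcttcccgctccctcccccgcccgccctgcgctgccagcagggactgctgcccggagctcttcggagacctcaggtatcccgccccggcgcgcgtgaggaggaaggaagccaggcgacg

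A RefSeq promoter was matched for 34 of the 44 members and for 10 none was, among them Snap25, Snap91, Syt5, Syt7, Syt12, Syt13, Syt17, Vamp3 and Vamp7. EGR letters stood in 4 of the 38 windows matched to members (Syt16 had several), those of Snap29, Syt1, Vamp2 and Vamp4. They stood in 4.29% of all 33469 promoters of that length. Apart from 1 free base, the EGR letters are all G or C. Median G and C content was 59.2% in member windows and 51.2% in all promoters. Median counts of C followed by G were 12 and 5. The part of base composition in these matches was not tested. The CRE letters stood in Vamp1 alone among members and in 1.59% of all promoters, and the interferon-stimulated core in Vamp1, Cplx2, Stx18, Syt6 and Syt16 and in 8.12% of all. AP-1 letters (6.34% of all promoters) were in no member's window. Egr2, a myelinating Schwann cell factor of the EGR family, had normalized counts of 514.4 to 867.7 in PEG, 730.2 to 941.3 in NC and 3271 to 4398 in Unop nerves. A match describes letters only, and whether any factor binds there was not tested.

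Vamp8 (endobrevin), a VAMP of late endosomes and of granule release in blood cells, was lower in PEG-fused grafts than in both other groups. For Vamp8, the 3 PEG libraries stood at 2787, 2312 and 2548, the 3 NC libraries at 3835, 4307 and 3616, and the 2 Unop libraries at 4114 and 3471 normalized counts. The NC and Unop libraries overlapped and the PEG libraries lay below them. Between the PNAs the means were 2549 ± 238 (PEG, SD, n = 3) and 3919 ± 354 (NC, SD, n = 3), a log2 fold change of -0.62, SE 0.11, adjusted p = 0.00494. Relative to Unop nerves (3792 ± 455, SD, n = 2), PEG-fused PNAs were lower, at a log2 fold change of -0.57, SE 0.12, adjusted p = 0.00408.

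Of 7 VAMPs, 0 were higher and 2 lower in PEG-fused than in NC PNAs. These were 0% and 28.6%, beside 15.0% and 13.9% of all genes tested. At an unadjusted p below 0.05 by limma, and by DESeq2 and by edgeR, 1 was higher, Vamp7. Vamp7, a VAMP of lysosomes and neurite growth, had libraries of 1135 to 1197 in PEG, 966.0 to 1025 in NC and 1189 to 1208 in Unop nerves. Its lower call in NC PNAs against Unop nerves was lost without NC 1, Unop 1 or Unop 2, with 2 groups only and with a replicate block (largest adjusted p 0.0842). Against Unop nerves 6 were lower in PEG-fused and 5 in NC PNAs, and 0 were higher in either by limma, at an unadjusted p, by DESeq2 or by edgeR. The lower shares were 85.7% and 71.4%, beside 28.6% and 32.3% of all genes. Higher calls made up 29.1% and 32.2% of all genes. Vamp3 (cellubrevin), the recycling endosome VAMP, fell by 0.51 and 0.49 on the log2 scale in PEG-fused and NC PNAs, and Vamp4 of the trans-Golgi by 0.82 and 0.93. Vamp5 (myobrevin), known from muscle, was lower in PEG-fused grafts than in Unop nerves (log2 fold change -0.69, SE 0.23, adjusted p = 0.0286). Without any 1 PEG or Unop library that call was lost (largest adjusted p 0.135). For NC 1, NC 2 and NC 3 the level of Vamp5 was 911.5, 499.2 and 605.8, the order of their muscle markers, whose part was not tested.

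Of the SNAP proteins, Snap25, the neuronal t-SNARE of synaptic release, had 15 reads or fewer in each graft library. The Snap25 libraries read 0.927, 1.87 and 1.88 normalized counts in PEG, 13.4, 3.23 and 1.93 in NC and 168 and 151 in Unop. These are 5 reads over the 3 PEG libraries, 20 over the 3 NC libraries (15 of them in NC 1) and 278 over the 2 Unop libraries. By the summed reads scaled for depth, Unop nerves were 103-fold higher than PEG-fused PNAs (95% counting interval 43.7 to 320) and 24.8-fold higher than NC PNAs (15.7 to 41.2), intervals that cover counting error only. Without NC 1, which also had the most muscle marker reads, the fold over NC PNAs was 63.1 (26.7 to 196). Snap25 reached the minimum for testing only in Unop 1, Unop 2 and NC 1, so its difference from Unop nerves is given as a description, with no p. Between the PNAs it was not called (log2 fold change -1.16, SE 0.59, adjusted p = 0.170).

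Snap29, which forms an autophagosome SNARE bundle with Stx17 and Vamp8, was the SNAP protein that rose in both PNAs. Snap29 was measured at 3976, 3449 and 3674 normalized counts in PEG, 4066, 4254 and 4113 in NC and 2997 and 2907 in Unop libraries. Both Unop libraries lay below all PNA libraries. The mean of PEG-fused PNAs, 3700 ± 265 (SD, n = 3), was higher than that of Unop nerves (2952 ± 64.2, SD, n = 2), a log2 fold change of 0.32, SE 0.09, adjusted p = 0.0118. Against Unop nerves the mean of NC PNAs was higher, 4144 ± 97.6 (SD, n = 3), a log2 fold change of 0.49, SE 0.09, adjusted p = 0.00123. Its promoter holds EGR letters 119 to 111 bases before the start site. Snap47 was called in no comparison, with group means of 552.7 (PEG), 543.0 (NC) and 512.6 (Unop).

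Snap91 (AP180), which recruits clathrin for synaptic vesicle recycling, was low throughout. Snap91 had normalized counts of 3.71, 5.61 and 10.3 in the PEG libraries, 17.0, 36.6 and 24.1 in the NC libraries and 42.9 and 42.5 in the Unop libraries. The PEG libraries lay below all others, and both Unop libraries above all others. Its mean was lower in the PEG libraries, 6.55 ± 3.40 (SD, n = 3), than in the NC libraries, 25.9 ± 9.92 (SD, n = 3), a log2 fold change of -1.86, SE 0.42, adjusted p = 0.0130. PEG-fused PNAs were lower than Unop nerves (42.7 ± 0.285, SD, n = 2), at a log2 fold change of -2.63, SE 0.47, adjusted p = 0.00156.

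Both SV2 genes were higher in PEG-fused PNAs than Unop nerves. Sv2a, the most widely expressed SV2 and the binding site of the drug levetiracetam, rose in both kinds of PNA. Normalized counts of Sv2a were 369.8, 341 and 399 in PEG-fused PNAs, 351, 429 and 383 in NC PNAs and 61.2 and 56.3 in Unop nerves. The lowest PNA library was 5.58-fold above the higher Unop library. Against Unop nerves (58.7 ± 3.46, SD, n = 2) the mean of PEG-fused PNAs was higher, 369.9 ± 28.7 (SD, n = 3), a log2 fold change of 2.63, SE 0.15, adjusted p = 4.63e-06. The mean of NC PNAs, 388 ± 39.2 (SD, n = 3), was higher than that of Unop nerves, a log2 fold change of 2.70, SE 0.15, adjusted p = 2.54e-06. PEG and NC libraries overlapped, with a 95% interval of -0.38 to 0.25 for their log2 difference. Sv2a had the largest rise of any member in NC PNAs against Unop nerves, and the second largest after Syt4 in PEG-fused PNAs.

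Sv2c, a vesicle glycoprotein that binds botulinum neurotoxin A, rose in PEG-fused PNAs. For Sv2c, the 3 PEG libraries stood at 64.9, 99.1 and 98.5, the 3 NC libraries at 20.6, 36.6 and 53.1, and the 2 Unop libraries at 17.2 and 26.3 normalized counts. The PEG libraries lay above all others, and NC and Unop libraries overlapped. The PEG mean of 87.5 ± 19.6 (SD, n = 3) was higher than the NC mean of 36.7 ± 16.3 (SD, n = 3), at a log2 fold change of 1.30, SE 0.38, adjusted p = 0.0350. Relative to Unop nerves (21.7 ± 6.43, SD, n = 2), PEG-fused PNAs were higher, at a log2 fold change of 1.96, SE 0.42, adjusted p = 0.00424. The call against NC PNAs was lost without PEG 2, PEG 3, NC 1 or NC 2 (adjusted p 0.0632 to 0.115), while that against Unop nerves held without any 1 library. Beside Syt4 and Sv2c, summed repair Schwann cell markers (6 genes, none at 0) were 17086 to 21925 in PEG, 6290 to 7836 in NC and 1445 to 2105 in Unop nerves, and their part in these results was not tested. Ngfr made up most of the PEG and NC sums, at 15448 to 20293 in PEG. Of the 6 genes, 3 were called higher and 0 lower in PEG-fused than in NC PNAs. Shh was at 214 to 390 in PEG and 366 to 413 in Unop nerves.

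Complexins differed by gene. Cplx1, the complexin of fast-releasing neurons, was also low in the grafts. The Cplx1 libraries read 5.56, 0.935 and 6.57 normalized counts in PEG, 11.6, 7.53 and 3.86 in NC and 229.7 and 306 in Unop. These are 14 reads over the PEG, 24 over the NC and 459 over the Unop libraries. Unop nerves were 60.9-fold higher than PEG-fused PNAs (95% counting interval 35.9 to 112) and 34.1-fold higher than NC PNAs (22.6 to 53.7). Cplx1, too, reached the minimum only in Unop 1, Unop 2 and NC 1, and these folds are a description with no p. PEG and NC libraries overlapped.

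Cplx2, found in neurons and in secretory cells such as mast cells, was intermediate in PEG-fused PNAs. Cplx2 was measured at 296, 347 and 296 normalized counts in PEG, 164, 142 and 164 in NC and 602 and 777 in Unop libraries. The groups did not overlap, in the order Unop, PEG and NC. Between the PNAs the means were 313 ± 29.3 (PEG, SD, n = 3) and 157 ± 12.6 (NC, SD, n = 3), a log2 fold change of 0.99, SE 0.15, adjusted p = 0.00240. PEG-fused PNAs were lower than Unop nerves (689 ± 123, SD, n = 2), at a log2 fold change of -1.13, SE 0.16, adjusted p = 0.000531. Relative to Unop nerves, NC PNAs were lower, at a log2 fold change of -2.12, SE 0.16, adjusted p = 1.12e-05. Mast cell markers (7 genes matched, none at 0) were 1189 to 1664 in PEG, 1139 to 1625 in NC and 5186 to 8900 in Unop nerves, and their part in the Cplx2 result was not tested. Of these 7, 6 were called lower in each kind of PNA than in Unop nerves. Kit went the other way, at 573 to 812 in PEG, 584 to 1030 in NC and 448 to 508 in Unop nerves. Cplx3, a complexin of retinal ribbon synapses, was at 3.23 to 11.6 normalized counts in single libraries and called in no comparison.

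**Figure D4:**
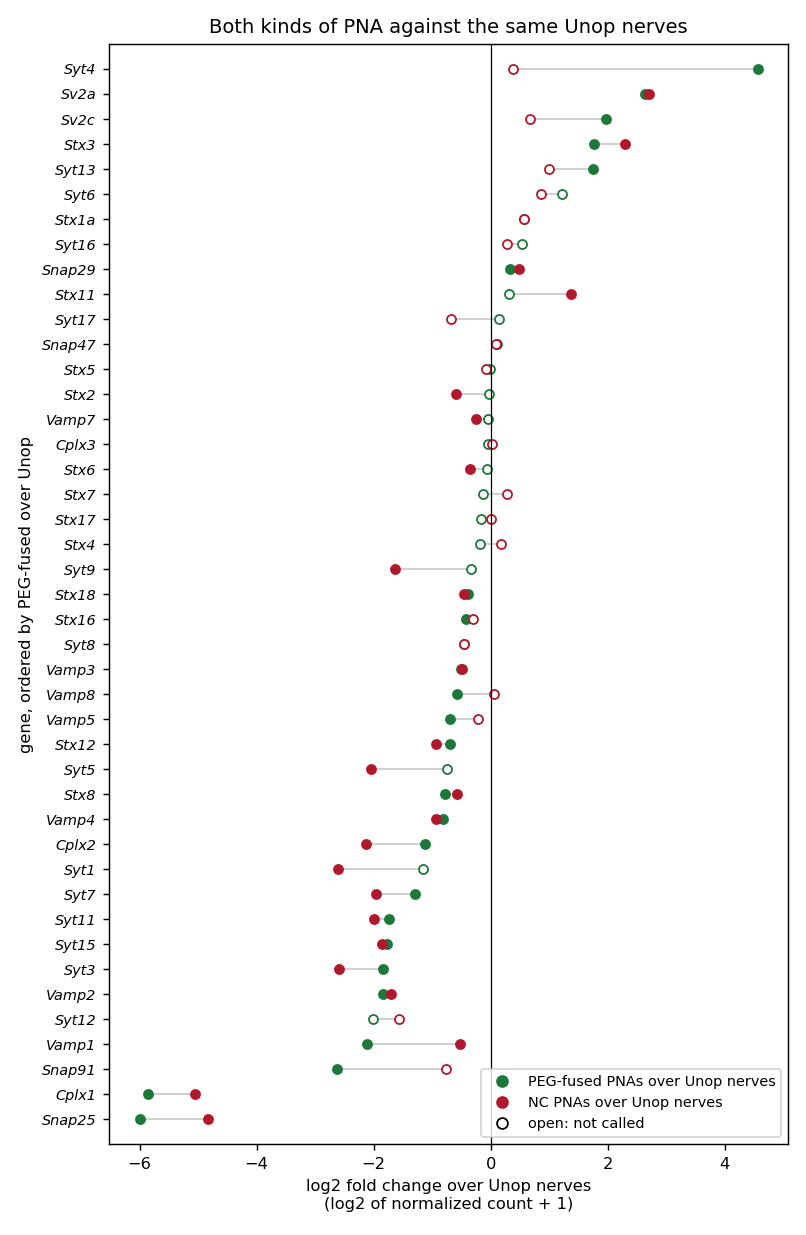
Log2 fold change over the same 2 Unop nerves (horizontal axis, log2 of normalized count + 1) for each fusion gene, in PEG-fused PNAs (green) and NC PNAs (red), filled where called, with 1 member not shown. Snap25 and Cplx1 lie below -4.8 in both, Sv2a above 2.6 in both, and Syt4 at 4.56 and 0.38.

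By the combination of calls, 10 members were lower in both kinds of PNA than in Unop nerves and not called between the PNAs (Syt7, Syt11, Syt15, Stx8, Stx18, Vamp2, Vamp3, Vamp4, Snap25 and Cplx1). Another 3 were lower in both and higher in PEG-fused than in NC PNAs (Syt3, Stx12 and Cplx2), and 4 were higher in PEG-fused than in NC PNAs and lower than Unop nerves in NC PNAs only by the call (Syt5, Syt9, Stx2 and Stx6). Syt4 and Sv2c were higher in PEG-fused grafts than in both other groups, and Snap91 and Vamp8 lower than in both, as was Vamp1. Stx11 alone was called higher in NC PNAs than in both other groups without a call between PEG-fused PNAs and Unop nerves. There were 10 members called in no comparison. Of the axon and neuron markers tested (9 genes), 2 were higher in PEG-fused than in NC PNAs, where 15.0% of all genes were. Against Unop nerves 7 of these markers were lower in PEG-fused and 8 in NC PNAs, where 28.6% and 32.3% of all genes were. The part of these markers in the patterns above was not tested.

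Other SNAREs of the Golgi and endosomes (12 tested) were described as a list by counts alone. In PEG-fused against NC PNAs 3 rose and 0 fell by limma, with 0 lower also at an unadjusted p and by DESeq2 and edgeR. By limma these were 25.0% and 0%, beside 15.0% and 13.9% of all genes tested. Sec22b had normalized counts of 2807, 2849 and 2844 in the PEG libraries, 2147, 2074 and 2187 in the NC libraries and 2565 and 2468 in the Unop libraries. Sec22b was higher in the PEG than in the NC libraries (log2 fold change 0.41, SE 0.07, adjusted p = 0.00362). Bet1 and Vti1a, which like Sec22b serve traffic between the endoplasmic reticulum, Golgi and endosomes, rose too (log2 fold change 0.39, SE 0.09, adjusted p = 0.0123 and log2 fold change 0.33, SE 0.10, adjusted p = 0.0352, respectively). Against Unop nerves 1 was higher and 4 lower in PEG-fused, and 1 higher and 8 lower in NC PNAs, with list medians of -0.20 and -0.43. These were 8.33% and 33.3%, and 8.33% and 66.7%, beside 29.1% and 28.6%, and 32.2% and 32.3%, of all genes tested. Ykt6 was the one higher in both.

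Among the factors that take SNARE bundles apart and the Sec1/Munc18 proteins that guide syntaxins (12 tested), 1 rose and 1 fell between the PNAs. Each was 8.33%, beside 15.0% of all genes tested higher and 13.9% lower. Stxbp2 (Munc18-2), the Sec1/Munc18 partner of Stx11 in granule release, had the same order of group means as Stx11. Normalized counts of Stxbp2 were 1642, 1694 and 1800 in PEG-fused PNAs, 2194, 2982 and 2446 in NC PNAs and 325 and 336 in Unop nerves. The groups did not overlap. Stxbp2 was lower in the PEG than in the NC libraries (log2 fold change -0.56, SE 0.12, adjusted p = 0.00962). Against Unop nerves it was higher in NC PNAs (log2 fold change 2.93, SE 0.13, adjusted p = 9.88e-07). Vps33a, of endosome to lysosome fusion, rose in PEG-fused over NC PNAs (log2 fold change 0.25, SE 0.08, adjusted p = 0.0441). Nsf, the ATPase that separates used SNARE bundles, was higher in PEG-fused grafts than in Unop nerves (log2 fold change 0.48, SE 0.13, adjusted p = 0.0152).

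Priming and docking factors (28 tested) had 3 higher and 7 lower in PEG-fused than in NC PNAs, and a median log2 fold change of -0.05. These were 10.7% and 25.0%, beside 15.0% and 13.9% of all genes tested. For Rab3b, the 3 PEG libraries stood at 224, 283 and 234, the 3 NC libraries at 100.1, 91.4 and 69.5, and the 2 Unop libraries at 80.5 and 58.8 normalized counts. Rab3b, a vesicle Rab GTPase, was higher in every PEG library than in any other (log2 fold change 1.50, SE 0.21, adjusted p = 0.00212 against NC PNAs). Rims2, an active zone scaffold, and Sytl4, a Rab27 effector, rose likewise (log2 fold change 0.96, SE 0.15, adjusted p = 0.00269 and log2 fold change 0.80, SE 0.18, adjusted p = 0.0123). The 7 that fell were Sytl1, Sytl3, Unc13d, Baiap3, Rab27a, Cadps2 and Rph3al. The Unc13d libraries read 656, 351 and 584 normalized counts in PEG, 1223, 2356 and 1578 in NC and 144 and 143 in Unop. Unc13d (Munc13-4), which primes cytotoxic granules, had NC libraries above all PEG libraries, and these above both Unop libraries (log2 fold change -1.69, SE 0.28, adjusted p = 0.00405). Rab27a, the Rab GTPase of those granules, fell by 0.82 on the log2 scale (SE 0.19, adjusted p = 0.0160), and was named after its values were seen.

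Against Unop nerves 10 of the 28 priming and docking factors were higher and 8 lower in PEG-fused PNAs, and 8 higher and 9 lower in NC PNAs. These were 35.7% and 28.6%, and 28.6% and 32.1%, beside 29.1% and 28.6%, and 32.2% and 32.3%, of all genes tested. Munc13 genes, which prime vesicles, went in both directions. Unc13a (Munc13-1), the neuronal primer, was higher in both kinds of PNA (log2 fold change 1.33, SE 0.23, adjusted p = 0.00125 in PEG-fused and log2 fold change 1.50, SE 0.23, adjusted p = 0.000497 in NC PNAs). Unc13c, another neuronal Munc13, had at most 5.63 normalized counts in any PNA library and at least 25.0 in Unop nerves. Rph3a and Doc2b, Ca2+-binding factors of synaptic vesicles, had at most 2.81 and 9.65 in any PNA library and at least 26.3 and 62.5 in Unop nerves. Sytl5 had at most 4.63 in any PNA library and at least 25.0 in Unop nerves. Unc13c, Rph3a, Doc2b and Sytl5 reached the minimum for testing in the Unop libraries alone, so these values are a description. Both lower counts above include these genes. Rab3a, the main synaptic vesicle Rab, was lower in both PNAs, at 38.0 to 57.2 in PEG, 44.4 to 51.6 in NC and 203.9 to 212.6 in Unop libraries.

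Synaptic vesicle and active zone proteins (23 tested) had 6 higher and 1 lower in PEG-fused than in NC PNAs. These were 26.1% and 4.35%, beside 15.0% and 13.9% of all genes tested. Syngr1 was measured at 463, 774 and 803 normalized counts in PEG, 168, 166 and 202 in NC and 1102 and 927 in Unop libraries. Syngr1, a synaptogyrin, had PEG libraries above NC and below Unop libraries (log2 fold change 1.89, SE 0.22, adjusted p = 0.00102). Synpr had normalized counts of 107.5, 89.7 and 65.7 in the PEG libraries, 15.2, 9.68 and 4.82 in the NC libraries and 31.1 and 25.0 in the Unop libraries. Synpr (synaptoporin) had PEG libraries above all others (log2 fold change 3.12, SE 0.40, adjusted p = 0.00149). Slc18a2, a vesicular monoamine transporter, was also above both other groups in every PEG library, at 883.3 to 1111 against 463.8 to 547.9 in NC and 309.1 to 345.2 in Unop libraries (log2 fold change 1.00, SE 0.13, adjusted p = 0.00137). Svop, Erc2 and Amph rose from low levels, and Syngr2, a synaptogyrin outside neurons, fell (log2 fold change -0.83, SE 0.13, adjusted p = 0.00333). Against Unop nerves 7 were higher and 9 lower in PEG-fused, and 6 higher and 12 lower in NC PNAs. These were 30.4% and 39.1%, and 26.1% and 52.2%, beside 29.1% and 28.6%, and 32.2% and 32.3%, of all genes tested. Pclo, called lower in both, and Syngr4, called lower in PEG-fused PNAs, reached the minimum for testing in the Unop libraries alone. Svop, also called lower in both, reached it in the Unop libraries and PEG 3 alone. Erc2, called lower in NC PNAs, reached it in no NC library. The calls of these genes, also those of Svop and Erc2 between the PNAs, are a description. In any PNA library Pclo had at most 7.72, Syngr4 at most 8.04 and Svop at most 10.3. Syp (synaptophysin) stood at 13.9 to 18.7 in PEG, 5.36 to 17.4 in NC and 53.7 to 63.8 in Unop libraries.

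Of the exocyst, a tether of vesicles at the plasma membrane, 1 of 8 genes tested was higher in PEG-fused than in NC PNAs (Exoc6b, log2 fold change 0.36, SE 0.10, adjusted p = 0.0262) and 1 lower (Exoc6, log2 fold change -0.44, SE 0.10, adjusted p = 0.0139). Each was 12.5%. For this list and the next, 15.0% of all genes tested were called higher and 13.9% lower. Ferlins and extended synaptotagmins (7 tested), which carry C2 domains like synaptotagmins, had 0 higher and 0 lower by limma, by DESeq2 and by edgeR, and 1 higher at an unadjusted p below 0.05 (Myof). Normalized counts of Myof were 9936, 11838 and 11059 in PEG-fused PNAs, 7431, 9040 and 9982 in NC PNAs and 2408 and 3018 in Unop nerves. Myof (myoferlin), a membrane repair protein, rose in both kinds of PNA over Unop nerves (log2 fold change 2.02, SE 0.15, adjusted p = 1.56e-05 and log2 fold change 1.70, SE 0.15, adjusted p = 2.59e-05). Sypl2 belongs to the synaptic vesicle and active zone list above, and Txlnb to the priming and docking list. Among NC libraries both were highest in NC 1 (3314 and 1566), lowest in NC 2 (47.3 and 25.8) and between these in NC 3 (1636 and 634.7). This is the order of the muscle markers, whose part was not tested. Between the PNAs neither was called by limma (adjusted p 0.105 and 0.0942), and both were called lower in PEG-fused PNAs by DESeq2 (0.00145 and 0.00147) and by edgeR (0.0278 and 0.0269).

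**Figure D5:**
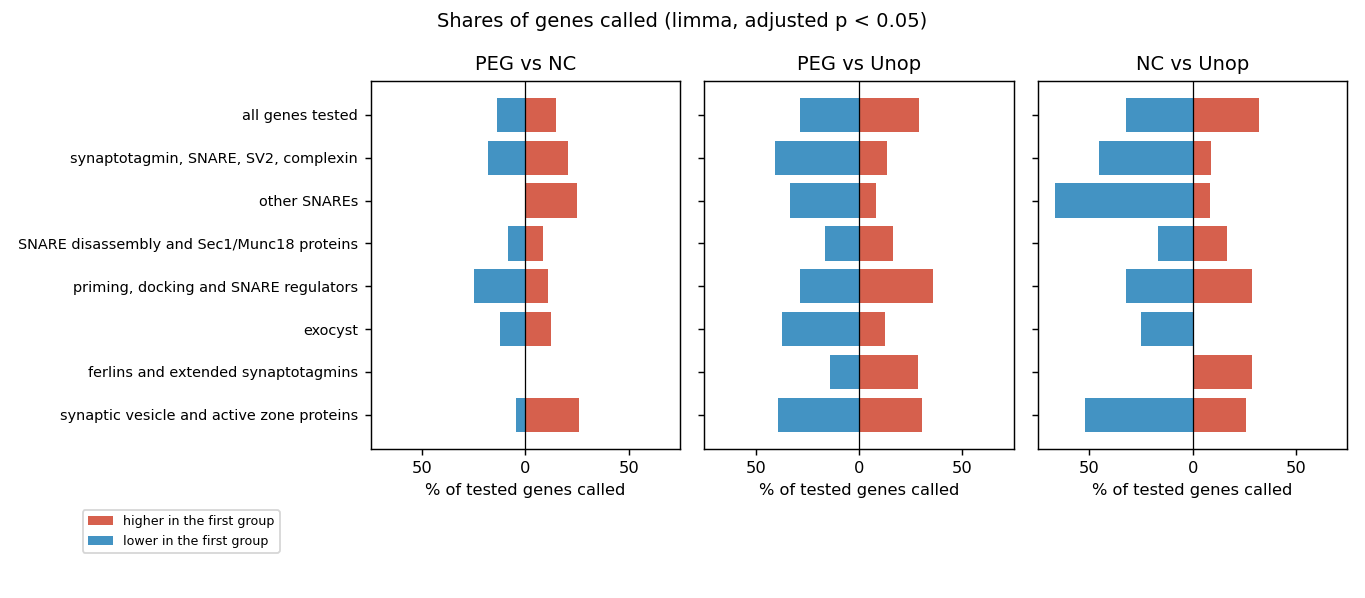
Share of tested genes called by limma (adjusted p below 0.05) higher (red, right) and lower (blue, left) in the first-named group, for all genes, the 44 fusion genes and 6 further lists, in the 3 comparisons. Against Unop nerves the fusion genes have more lower than higher calls (40.9% and 13.6% in PEG, 45.5% and 9.09% in NC), where all genes have nearly equal shares. The lower shares of the fusion genes include Snap25 and Cplx1, and in NC PNAs Syt1 and Syt9, whose calls are a description. The higher share in PEG against NC includes Syt9 in the same way.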

How the data were processed

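RNA of 8 rat sciatic nerve samples (3 PEG-fused PNAs, 3 NC PNAs, 2 Unop nerves) was sequenced as poly-A-selected stranded libraries. Reads were aligned to Rnor_6.0 with TopHat2 and counted per gene with HTSeq by the authors, whose deposited values are these counts divided by DESeq2 size factors, a signal of normalized reads and not raw counts. Whole reads were recovered from the steps of each column (100% of nonzero values whole within 0.001). The deposited tables of the study's own comparisons hold log2 fold changes, test statistics and p-values and were not used.

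Genes with a normalized count of 10 or more in 2 or more libraries were tested with limma 3.58.1 (R 4.3.3) on log2(normalized count + 1), with 1 mean per group, a mean-variance trend and all 8 libraries sharing the spread. P-values are two-sided and Benjamini-Hochberg adjusted over 16478 genes, and calls are at 0.05. The fold change of a low gene is understated on this scale. DESeq2 1.42.0 and edgeR 4.0.16 (quasi-likelihood) on the recovered reads were alternatives, as were TMM factors, other filters and pseudocounts, a fit of 2 groups, a replicate block, a fold change threshold and leaving out each library. The scripts were checked on simulated data.

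Libraries held 32472925 to 39959620 reads on genes, and counting intervals (exact, 95%) cover counting error only. The members and gene lists were chosen with earlier results of these data known. Values in every library are given for members called between the PNAs, for the 5 with the smallest p in each direction against Unop nerves, and for neuronal core genes (among them Syt1, Snap25, Stx1a, Vamp1, Vamp2, Cplx1, Cplx2, Sv2a, Sv2c), with list examples by smallest p between the PNAs. Other members and list genes named with values were picked after their values were seen. Values of 1 member and of 1 list gene are not reported here. Promoters are from RefSeq (GRCr8), matched by symbol, and no coordinates were moved between builds.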

Additional observations from a re-analysis of the deposited data

How the results depend on the processing

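The directions of all called members held in every alternative. Requiring a log2 fold change past 1 moved the members called higher and lower in PEG-fused against NC PNAs to 4 and 4, and those lower against Unop nerves to 10 in PEG-fused and 11 in NC PNAs. Leaving out 1 library at a time gave 4 to 9 members higher in PEG-fused than in NC PNAs, with 5 without PEG 2 and 4 without PEG 3. For members higher in NC PNAs than in Unop nerves it gave 4 to 7, with 7 without NC 1. Where an Unop library was left out, the lone one was taken to vary like the other groups. Of the calls, 10 of 17 between the PNAs, 20 of 24 for PEG-fused PNAs against Unop nerves and 21 of 24 for NC PNAs against Unop nerves held in every alternative, the fold change threshold aside. Those that held against Unop nerves include Snap25 and Cplx1, and in NC PNAs Syt1 and Syt9, whose calls are a description. Deviations of same-numbered libraries correlated at 0.11, 0.11 and -0.05 (PEG and NC), 0.15 and 0.14 (PEG and Unop) and 0.15 and 0.16 (NC and Unop), and since 1 pair was not above 0.1 the numbers were not taken to pair the samples. All 16478 genes tested gave 4763 calls between the PNAs, and 2753 without PEG 2. With a replicate block the member counts were 7 higher and 8 lower (PEG against NC), 7 and 18 (PEG against Unop) and 4 and 18 (NC against Unop). Depth limits the genes with few reads (Syt1, Syt9, Snap25, Snap91, Cplx1), and 2 Unop nerves limit every comparison with them.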
